A study of Mus musculus with 18 samples.

Results

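The CCAAT/enhancer binding proteins (C/EBP) Cebpa, Cebpb, Cebpd, Cebpe and Cebpg and the neutrophil granule genes Mpo, Elane, Prtn3, Ctsg and Ms4a3 were followed through 18 RNA-seq libraries of mouse hematopoietic stem cells (HSCs). The 10 genes were taken by symbol from the 24421 symbols of the count table. The rule names symbols and uses no measured value, but the genes were chosen with earlier results of these data known. All cells came from the bone marrow of Hoxb5-tri-mCherry mice on a C57BL/6J background, in which mCherry reports expression of Hoxb5, a gene that marks long-term HSCs. The study sorted long-term HSCs (LT-HSCs), short-term HSCs (ST-HSCs) and the immunophenotypic HSC gate as a whole (bulk-HSCs). Each fraction was taken from young mice of 2 to 3 months and from aged mice of 23 to 25 months, with 3 libraries per group. LT-HSCs and ST-HSCs are the Hoxb5-positive and Hoxb5-negative cells of that gate, so bulk-HSCs hold cells of both kinds. The study found fewer ST-HSCs for each LT-HSC in this gate at older age. How far this shift in the mixture enters the age differences of bulk-HSCs was not tested. The labels name no treatment.

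C/EBP proteins are basic leucine zipper transcription factors that bind DNA as dimers. C/EBPα starts the granulocyte and monocyte programme in progenitors, C/EBPβ and C/EBPδ act in emergency granulopoiesis and in inflammatory responses, C/EBPε is needed for the late granule stage, and C/EBPγ lacks a transactivation domain and forms dimers with its relatives. Myeloperoxidase (Mpo), neutrophil elastase (Elane), proteinase 3 (Prtn3) and cathepsin G (Ctsg) fill the primary granules of promyelocytes, and Ms4a3 marks granulocyte and monocyte progenitors. Since aged HSCs are widely described as giving more myeloid cells, these genes are a common readout of myeloid priming in stem cells.

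Depth was between 16495048 and 22973844 counts per library, with a median of 20397548. Levels are given as CPM, the count scaled to the depth of its library with TMM factors. A level of 3 counts, taken as the smallest that can be shown, was 0.132 to 0.176 CPM. It covers counting error only, since the reads carry no molecular identifiers. Among the 9653 genes whose median reached 200 counts, young libraries listed between 1 and 163 at 0 and aged libraries between 2 and 6. In bulk-HSCs, replicates 1 to 3 listed 61, 29 and 67 of them at 0 in young mice and 5, 2 and 3 in aged mice. Replicate 3 of young LT-HSCs (163 genes) and replicate 3 of young ST-HSCs (160 genes) stood apart. The age differences of the genes tested in LT-HSCs and ST-HSCs, and the calls in ST-HSCs, are therefore also given without both. This setting was added after the data were seen. Whether a listed 0 is a true count of 0 was not tested, and limits and lower bounds of fold that start from a listed 0 hold only if it is. All 12 defining HSC markers, among them Kit, Procr, Hlf and Mecom, passed the filter on low values. Hoxb5, the reporter gene, was at 19.1 ± 18.4 CPM in young and 23 ± 4.04 CPM in aged LT-HSCs (SD, n = 3). In ST-HSCs it was at 2.08 ± 1.93 and 2.21 ± 2.13 CPM, and the differences did not pass the test, at 3.19 ± 1.13 and 3.37 ± 1.14 on the log2 scale (edgeR adjusted p = 0.295 and 1). The labels do not say whether libraries of a group come from separate animals, and p-values then measure only the spread between these libraries.

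Of the 10 genes, 5 had a mean of at least 1 CPM and were tested, namely Cebpa, Cebpb, Cebpd, Cebpg and Prtn3. Mpo, Ctsg and Ms4a3 had 0 counts in all 18 libraries, Cebpe had 7 counts in a single library and Elane had 37 counts in 5 libraries. Among the 5 genes tested, Cebpb and Prtn3 rose with age in bulk-HSCs, by 3.32 and 1.19 on the log2 scale, in a comparison that called 1.53% of all genes higher in aged mice. With age in LT-HSCs and in ST-HSCs 0 of the 5 were called with edgeR (1 and 2 at an unadjusted p under 0.05, 0 and 2 with DESeq2), where 0.304% and 0.625% of all genes were called higher. An unadjusted p under 0.05 was found there for 8.81% and 9.67% of all genes. The share of all genes called with DESeq2 was not computed. The DESeq2 counts here and below therefore stand without a share to set them against. A gene is called changed where edgeR's quasi-likelihood test, adjusted by Benjamini-Hochberg over all 12808 genes tested, gave an adjusted p under 0.05.

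**Figure D1:**
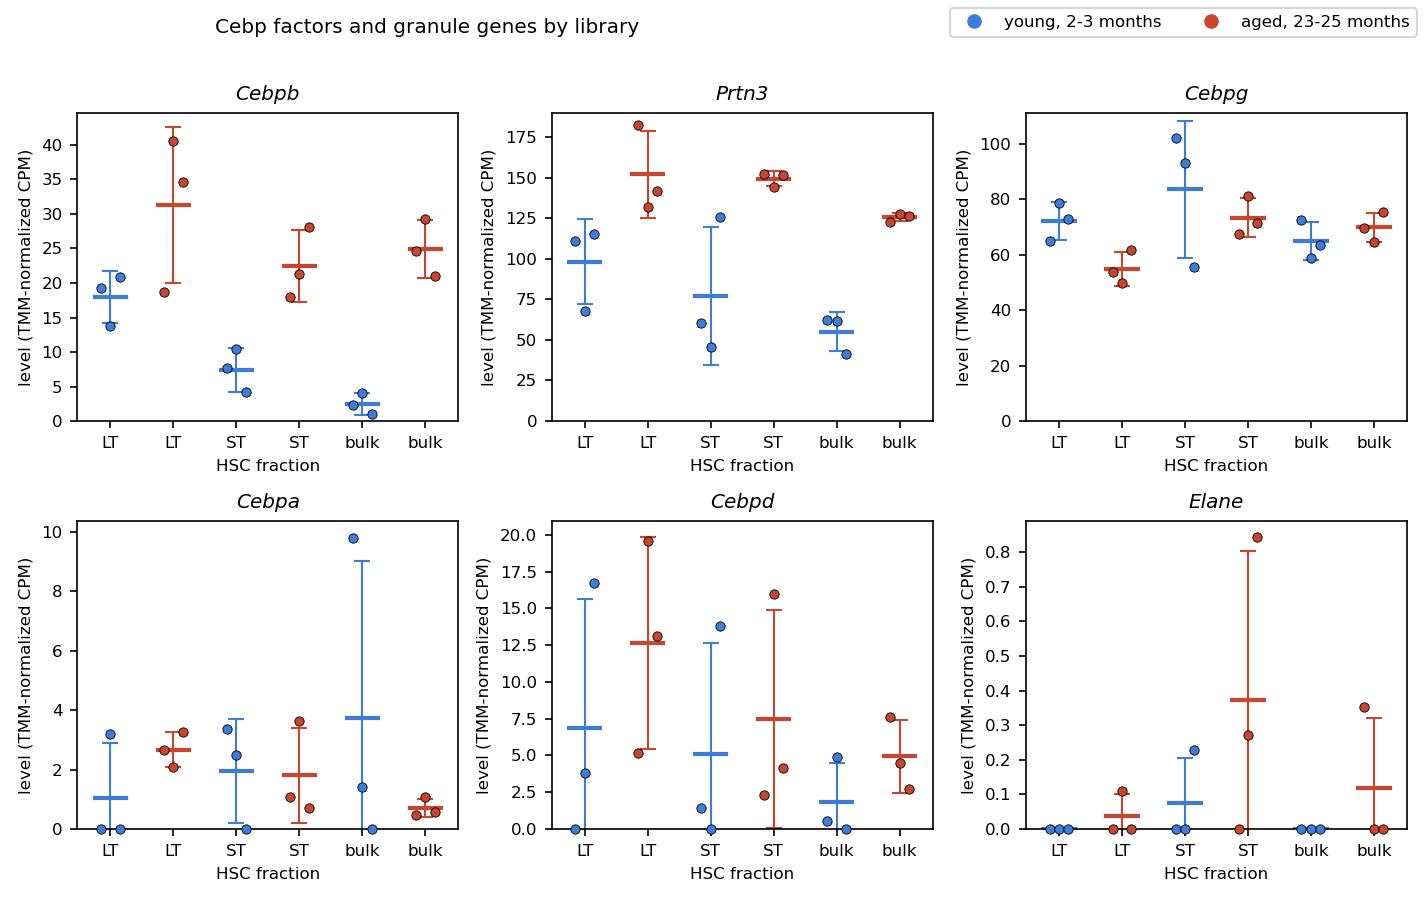
Level of 6 genes in each library (points, TMM-normalized CPM) by HSC fraction and age, with the mean of each group (thick line) and its SD (bars, n = 3). The aged libraries of Cebpb and Prtn3 lie above the young ones in ST-HSCs and bulk-HSCs, whereas Cebpa and Cebpd contain libraries at 0 beside libraries of up to 9.79 and 16.8 CPM among the young ones.

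Cebpb, the member of the family best known for emergency granulopoiesis, showed the largest change among the 5 genes tested. It is a single-exon gene at chr2:167688915-167690418 on the plus strand (mm10, GENCODE M21), with 1504 exonic bases. In young bulk-HSCs its level was 2.35, 4.13 and 0.98 CPM in replicates 1 to 3, and in aged bulk-HSCs it was 24.6, 29.2 and 20.9 CPM. The ages were far from overlapping. In whole populations of sorted cells, fewer cells that use a gene and less RNA of it per cell cannot be told apart. The log2 fold change was 3.32 ± 0.51 (SE), with a 95% interval of 2.25 to 4.39 and an adjusted p of 0.00176 (edgeR). Leaving out each of the 6 libraries in turn gave edgeR adjusted p-values from 0.00152 to 0.00884. Over 8 other settings of the analysis, DESeq2 among them, the adjusted p ranged from 2.77e-10 to 0.0446.

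In ST-HSCs, Cebpb stood at 7.70, 10.5 and 4.14 CPM in young mice and at 18, 21.3 and 28.2 CPM in aged mice. All aged libraries were higher than all young ones. The log2 difference was 1.59 ± 0.47 (95% interval 0.59 to 2.59), with an edgeR adjusted p of 0.152, whereas DESeq2 gave 0.0185. The adjusted p ranged from 0.0185 to 0.272 over 8 other settings of the analysis. Without both young libraries that stood apart the difference was 1.31 ± 0.49 (edgeR adjusted p = 0.337).

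The young LT-HSC libraries held 19.3, 13.7 and 20.9 CPM and the aged libraries 18.8, 40.5 and 34.6 CPM. These overlapped, since aged replicate 1 lay within the young range. The log2 difference in LT-HSCs was 0.80 ± 0.46, and its 95% interval of −0.18 to 1.78 holds both no change and a rise of the size seen in ST-HSCs (edgeR adjusted p = 0.707). Without both libraries that stood apart it was 0.91 ± 0.48 (edgeR adjusted p = 0.653).

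The difference of the age effects was tested as an interaction. The change of LT-HSCs minus that of bulk-HSCs was −2.52 ± 0.67 on the log2 scale for Cebpb, with an unadjusted p of 0.00144 and an adjusted p of 0.528 (edgeR). DESeq2 gave 0.0136 for it, and the 8 other settings ranged from 0.0136 to 0.592. Between ST-HSCs and bulk-HSCs the difference was −1.73 ± 0.66 (edgeR adjusted p = 0.765) and between LT-HSCs and ST-HSCs −0.79 ± 0.66 (edgeR adjusted p = 1). These comparisons share libraries. A difference between fractions in how Cebpb changes with age was thus not called with edgeR.

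The level of Cebpb also differed between young LT-HSCs and young bulk-HSCs, in a comparison that called 0.273% of all genes. Young LT-HSCs exceeded young bulk-HSCs by 2.85 ± 0.50 on the log2 scale (17.9 ± 3.75 against 2.49 ± 1.58 CPM, SD, n = 3), with an edgeR adjusted p of 0.0164. This call was lost when only these 6 libraries entered the fit (adjusted p = 0.914) and without replicate 1 of young bulk-HSCs (adjusted p = 0.0543). The 8 other settings gave adjusted p-values between 1.88e-07 and 0.914, and without both libraries that stood apart the difference was 2.73 ± 0.48 (edgeR adjusted p = 0.0167). Young LT-HSCs against young ST-HSCs differed by 1.27 ± 0.47 (edgeR adjusted p = 0.329), or by 0.86 ± 0.52 without both libraries that stood apart (0.739), and young ST-HSCs against young bulk-HSCs by 1.58 ± 0.48 (edgeR adjusted p = 0.251, DESeq2 0.0343, 8 other settings 0.0343 to 1). Although bulk-HSCs hold cells of both sorted fractions, the 3 young bulk-HSC libraries all had less Cebpb than the lowest library of either, by the narrow margin of 4.13 against 4.14 CPM. The same libraries form the young side of the age difference of Cebpb in bulk-HSCs. In aged mice the 3 fractions lay between 18 and 40.5 CPM and no pair was called different with edgeR or DESeq2.

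Of the 1504 exonic bases of Cebpb, 908 lie within the span of Tmem189 on the opposite strand. The strand setting of the counting is not given in the sources used here, so reads of the pair cannot be told apart. Tmem189 differed with age by −0.42 ± 0.35 in bulk-HSCs, by 0.58 ± 0.35 in ST-HSCs and by 0.04 ± 0.35 in LT-HSCs (edgeR adjusted p = 0.725, 0.687 and 0.996), and had 34.3 ± 8.51 CPM in young and 25.6 ± 2.93 CPM in aged bulk-HSCs.

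The bases before the start of Cebpb are shown because this gene changed most. RefSeq (GRCm38.p6) places them at chr2:167688665-167688914, plus strand. The window holds no match to the C/EBP motif TTGCNNAA, the PU.1 (ETS) motif GAGGAA, the CRE motif TGACGTCA or the STAT motif TTCNNNGAA on either strand, which says only that these letters are not in these 250 bases.
Cebpb: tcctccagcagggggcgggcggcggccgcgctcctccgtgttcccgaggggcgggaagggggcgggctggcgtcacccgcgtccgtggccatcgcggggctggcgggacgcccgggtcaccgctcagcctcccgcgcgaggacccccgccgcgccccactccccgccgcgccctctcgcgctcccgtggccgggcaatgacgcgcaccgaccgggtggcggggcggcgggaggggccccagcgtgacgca

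Cebpg (chr7:35046422-35056573, minus strand) varied least among the Cebp genes tested. Its level was between 49.7 and 102 CPM in every library, and its biological coefficient of variation of 0.185 was higher than that of only 18.5% of the genes tested, whose median was 0.319. In LT-HSCs the young libraries had 65.0, 78.8 and 72.8 CPM and the aged libraries 53.6, 49.7 and 61.6 CPM. All aged libraries were lower here. The log2 difference was −0.39 ± 0.19 (edgeR adjusted p = 0.594, DESeq2 0.389). In ST-HSCs it was −0.19 ± 0.19 and in bulk-HSCs 0.11 ± 0.19, and the 95% intervals of these differences, −0.60 to 0.22 and −0.30 to 0.51, hold no change. Young ST-HSCs had the widest spread, because replicate 3, which stood apart, held 55.6 CPM and the others 102 and 93.1 CPM. Without both libraries that stood apart, the difference was −0.40 ± 0.16 in ST-HSCs and −0.40 ± 0.16 in LT-HSCs (edgeR adjusted p = 0.378 and 0.488).

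Cebpa (chr7:35119293-35121928, plus strand), the factor that opens the granulocyte and monocyte programme, was low and uneven. It was listed at 0 in 4 young libraries and in no aged library, and totalled 708 counts. In young mice it had 0, 3.18 and 0 CPM in LT-HSCs, 3.35, 2.49 and 0 in ST-HSCs and 9.79, 1.41 and 0 in bulk-HSCs. In aged mice the levels were 2.67, 2.09 and 3.25 CPM in LT-HSCs, 1.08, 3.64 and 0.69 in ST-HSCs and 0.48, 1.06 and 0.59 in bulk-HSCs. Young and aged libraries overlapped in all 3 fractions. The log2 differences with age were 1.32 ± 2.15, −0.11 ± 2.11 and −2.38 ± 2.22, and none was called (edgeR adjusted p = 0.968, 0.999 and 0.785). The coefficient of variation of Cebpa was 1.58, above that of 93.8% of genes, and replicate 1 of young bulk-HSCs decided its direction in bulk-HSCs, since the difference was 0.017 without that library. Without both libraries that stood apart, where Cebpa is at 0, the differences were 0.74 ± 1.98 in LT-HSCs and −0.69 ± 1.91 in ST-HSCs (edgeR adjusted p = 0.99 and 0.994). Without replicate 2 of young LT-HSCs, the one young LT-HSC library with Cebpa counts, the LT-HSC value was 8.74 (edgeR adjusted p = 0.237), a fit against a group at 0.

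Cebpd (chr16:15887286-15891031, plus strand), which acts with C/EBPβ in acute responses, was uneven too. It was at 0 in 1 young library of each fraction and in no aged library. In young mice its level was 0, 3.82 and 16.8 CPM in LT-HSCs, 1.46, 0 and 13.8 in ST-HSCs and 0.56, 4.90 and 0 in bulk-HSCs. In aged mice it was 5.18, 19.6 and 13.1 CPM in LT-HSCs, 2.30, 16 and 4.12 in ST-HSCs and 7.62, 4.46 and 2.73 in bulk-HSCs. The highest young values were in the libraries that stood apart. The log2 differences were 0.88 ± 1.78, 0.56 ± 1.77 and 1.43 ± 1.81, with edgeR adjusted p-values of 0.975, 0.996 and 0.87. Without both libraries that stood apart they became 2.71 ± 2.04 in LT-HSCs and 3.34 ± 2.12 in ST-HSCs, still without a call (edgeR adjusted p = 0.826 and 0.716). Single libraries moved the value over wide ranges when left out, 0.30 to 2.72 in LT-HSCs and 0.85 to 4.14 in bulk-HSCs, the highest without replicate 3 of young LT-HSCs and replicate 2 of young bulk-HSCs and the lowest without replicate 1 of young LT-HSCs and replicate 3 of young bulk-HSCs. Of the 3746 exonic bases of Cebpd, 1808 lie within the span of Spidr on the opposite strand.

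Cebpe (chr14:54710360-54712174, minus strand), the late granule factor, had 7 counts in replicate 1 of aged ST-HSCs (0.32 CPM) and 0 counts in the other 17 libraries. Its absence cannot be told from a level under the floor of 0.132 to 0.176 CPM.

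Prtn3 was by far the most abundant of the granule genes and rose with age in bulk-HSCs. Young bulk-HSCs held 62.1, 61.7 and 41.1 CPM and aged bulk-HSCs 123, 127 and 126 CPM. The aged libraries lay within a narrow band above all young ones. The log2 fold change was 1.19 ± 0.29 (95% interval 0.58 to 1.80), with an edgeR adjusted p of 0.0388. The call held under 8 other settings (adjusted p from 0.00081 to 0.0462). It was lost whichever of the 6 bulk-HSC libraries was left out, with adjusted p-values from 0.0667 to 0.144 and log2 fold changes from 1.02 to 1.29.

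In ST-HSCs, Prtn3 stood at 60.2, 45.7 and 125 CPM in young mice and at 152, 144 and 152 CPM in aged mice. The ages did not overlap, although young replicate 3 came close to the aged level. The log2 difference was 0.95 ± 0.29 (edgeR adjusted p = 0.154, DESeq2 0.0216, 8 other settings 0.0216 to 0.406). Without young replicate 3, which stood apart, it was 1.5 ± 0.24 with an edgeR adjusted p of 0.0058, and without both libraries that stood apart 1.5 ± 0.23 with 0.00399. The call in ST-HSCs thus turned on 1 library.

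In LT-HSCs, Prtn3 had 111, 67.9 and 115 CPM in young mice and 182, 132 and 142 CPM in aged mice. The ages did not overlap here either. The log2 difference was 0.63 ± 0.28 (95% interval 0.03 to 1.23), with an unadjusted p of 0.0402 and an edgeR adjusted p of 0.535. Without both libraries that stood apart it was 0.75 ± 0.23 (edgeR adjusted p = 0.217). Interaction tests called no difference between fractions in the change of Prtn3, which was −0.56 ± 0.40 for LT-HSCs against bulk-HSCs, −0.24 ± 0.40 for ST-HSCs against bulk-HSCs and −0.32 ± 0.40 for LT-HSCs against ST-HSCs (edgeR adjusted p = 0.985, 1 and 1). In young mice, LT-HSCs exceeded bulk-HSCs by 0.84 ± 0.29 without reaching the threshold (edgeR adjusted p = 0.26).

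**Figure D2:**
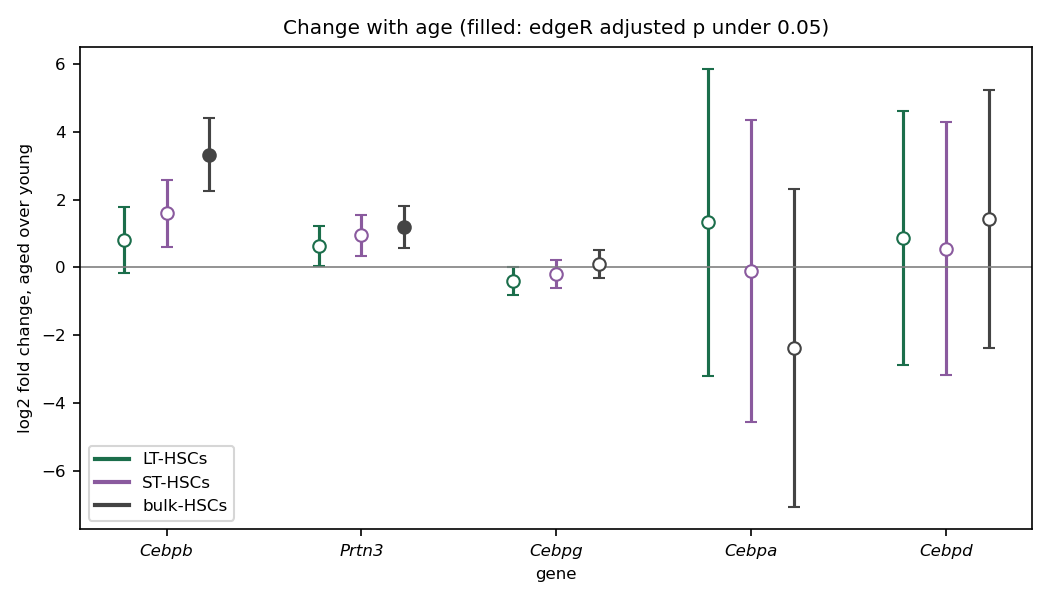
Log2 fold change of aged over young HSCs for the 5 genes tested, with 95% intervals, in each fraction; filled points have an edgeR adjusted p under 0.05. Cebpb (3.32) and Prtn3 (1.19) in bulk-HSCs are filled, and the intervals of Cebpa and Cebpd run from −7.06 to 5.85.

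The neighbour of Prtn3, Elane, was almost absent. Prtn3 (chr10:79874476-79883174) and Elane (chr10:79886247-79888215) lie on the plus strand of the same locus, 3072 bases apart, and had 39160 and 37 counts over all libraries. Elane was counted 4 times in replicate 3 of young ST-HSCs, 2 times in replicate 2 of aged LT-HSCs, 6 and 17 times in replicates 2 and 3 of aged ST-HSCs and 8 times in replicate 1 of aged bulk-HSCs. The highest level was 0.84 CPM. The count in aged LT-HSCs lies under the 3-count floor. Elane did not pass the filter and was not tested. Cfd, the next gene downstream, had 138 counts in all.

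Mpo (chr11:87793581-87804413), Ctsg (chr14:56099881-56102574) and Ms4a3 (chr19:11629496-11640851) were listed at 0 in every library of every group, which, if these are true counts of 0, allows up to 0.132 to 0.176 CPM in each. Lpo, the peroxidase gene next to Mpo, was also at 0. In all, 7828 symbols of the table had 0 counts in every library.

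The windows before the RefSeq starts of Prtn3 and Elane are shown because these adjacent genes of the same protease family had such unequal counts. The Prtn3 window lies inside the GENCODE span of that gene given above, which starts further upstream, at 79874476. The sequences are from RefSeq (GRCm38.p6), plus strand, at chr10:79879417-79879613 and chr10:79886062-79886246, and end before the nearest annotated exon. Capitals mark matches to GAGGAA, the core of PU.1 (ETS) sites.
Prtn3: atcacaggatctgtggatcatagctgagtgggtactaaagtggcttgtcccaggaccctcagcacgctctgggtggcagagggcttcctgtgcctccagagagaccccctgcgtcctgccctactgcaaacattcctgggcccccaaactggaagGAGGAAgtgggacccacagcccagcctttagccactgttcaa
Elane: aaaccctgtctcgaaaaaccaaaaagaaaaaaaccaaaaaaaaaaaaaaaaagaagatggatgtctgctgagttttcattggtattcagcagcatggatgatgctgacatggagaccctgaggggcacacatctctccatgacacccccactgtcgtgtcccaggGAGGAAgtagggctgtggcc

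Both windows hold 1 match to GAGGAA, 95 bases before the RefSeq start of Prtn3 and 85 bases before that of Elane. Mpo has 2 such matches and Ctsg 1, whereas Ms4a3, Cebpa, Cebpb and Cebpg have 0. Over the 32851 windows of 250 bases, 23.3% hold GAGGAA on either strand, 9.56% TTGCNNAA, 7.02% TTCNNNGAA and 1.55% TGACGTCA. None of the 8 members with a window (not Cebpd and Cebpe) holds TTGCNNAA or TGACGTCA, and Ctsg holds 1 match to TTCNNNGAA. These are matches of letters, not sites, and Elane, with hardly any counts, holds the same match as Prtn3.

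**Figure D3:**
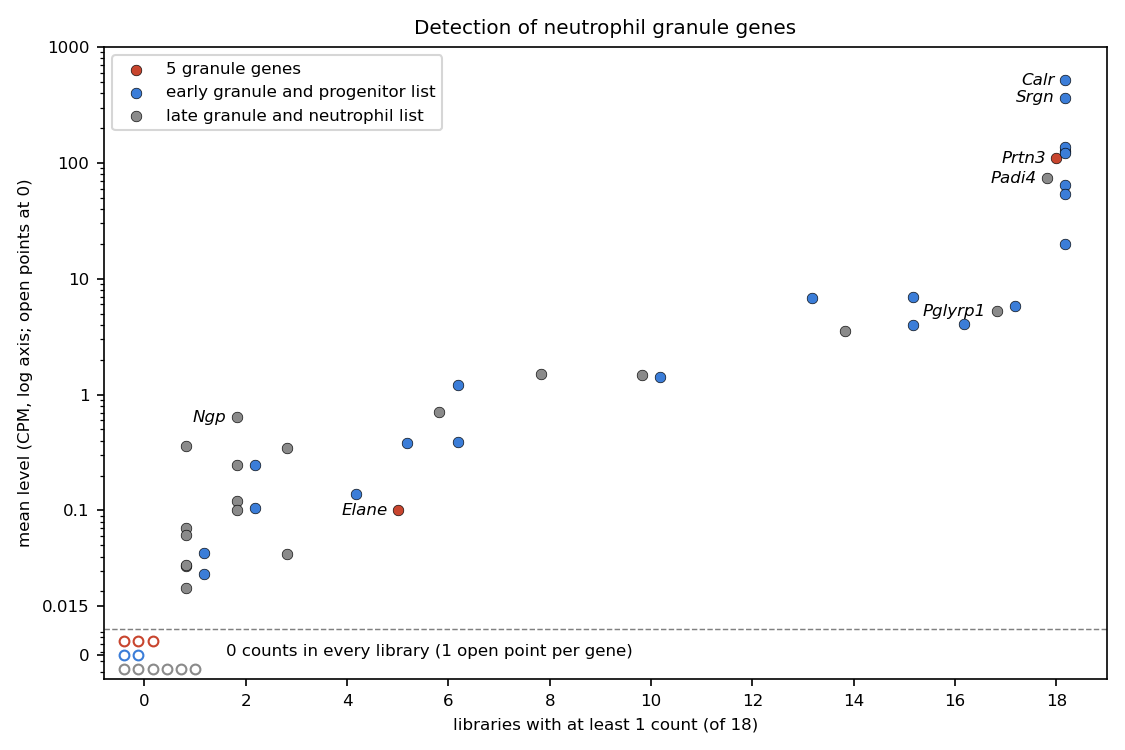
Mean level over 18 libraries (CPM, log axis, genes at 0 drawn under the dashed line) against the number of libraries with at least 1 count, for the 5 granule genes and for lists of early and late granule genes. Prtn3 (109 CPM) stands with the early genes counted in all 18 libraries, Elane (0.10 CPM) was counted in 5, and 11 genes, among them Mpo, Ctsg and Ms4a3, had 0 counts.

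Per kilobase of exon, Prtn3 stood highest on average, followed by Cebpg and Cebpb at like levels. The mean over the 18 libraries was 63.2 CPM per kilobase for Prtn3, 12.4 for Cebpg, 11.8 for Cebpb, 1.73 for Cebpd, 0.75 for Cebpa, 0.10 for Elane and 0.01 for Cebpe. Cebpg and Cebpb changed places between groups. In young LT-HSCs Cebpg was at 12.8 ± 1.24 and Cebpb at 11.9 ± 2.50 CPM per kilobase, within their spread. In young bulk-HSCs Cebpg stood at 11.6 ± 1.25 and Cebpb at 1.65 ± 1.05 CPM per kilobase (SD, n = 3), while in aged bulk-HSCs they were 12.4 ± 0.94 and 16.6 ± 2.76. In aged LT-HSCs Cebpb was at 20.8 ± 7.48 and Cebpg at 9.78 ± 1.09 CPM per kilobase. In aged ST-HSCs the pair, at 14.9 ± 3.46 and 13 ± 1.25, did not differ beyond its spread. Cebpd and Cebpa overlapped within their SD in the young groups and in aged ST-HSCs. In aged LT-HSCs Cebpd, at 3.37 ± 1.92, lay above Cebpa, at 1.01 ± 0.22, and in aged bulk-HSCs the pair was at 1.32 ± 0.66 and 0.27 ± 0.12 CPM per kilobase.

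Counted over the 5 genes tested, the calls were few and are set against the share of all genes called in the same comparison. With age in LT-HSCs, 0 passed (1 at an unadjusted p under 0.05, 0 with DESeq2), where 0.304% of all genes were called higher and 0.141% lower in aged mice and 8.81% had an unadjusted p under 0.05. In ST-HSCs, 0 passed (2 unadjusted, 2 with DESeq2), where 0.625% were called higher and 0.226% lower and 9.67% had such an unadjusted p. In bulk-HSCs 2 passed, both higher, where 1.53% were called higher and 0.445% lower and 13.3% had such an unadjusted p. In each fraction 2 of the 5 genes had ages that were fully separated, which were Prtn3 (higher) and Cebpg (lower) in LT-HSCs and Cebpb and Prtn3 (both higher) in ST-HSCs and bulk-HSCs. Over all genes tested, every aged library lay above every young one for 10.2%, 10.2% and 13.4% in the order LT-HSCs, ST-HSCs, bulk-HSCs, and below for 5.89%, 7.51% and 9.29%. The smallest p that an exact permutation of 3 against 3 libraries allows is 0.1.

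Between fractions, 1 call was made. In young mice LT-HSCs and bulk-HSCs differed in Cebpb, where 0.273% of all genes were called. LT-HSCs and ST-HSCs had 0 of 5 (1 unadjusted, 0 with DESeq2), where 0.429% of all genes were called and 10.4% had an unadjusted p under 0.05, and ST-HSCs and bulk-HSCs 0 of 5 (1 unadjusted, 1 with DESeq2), where these shares were 0.164% and 9.63%. In aged mice the counts were 0 of 5 for each pair of fractions, with 1 at an unadjusted p under 0.05 for LT-HSCs against ST-HSCs (Cebpg, lower in LT-HSCs) and 0 for the others, and 0 with DESeq2. Of all genes, 0.00781% were called there for LT-HSCs against ST-HSCs and 0% for the comparisons with bulk-HSCs, and 3.41%, 3.29% and 2.7% had an unadjusted p under 0.05 for LT-HSCs against ST-HSCs, LT-HSCs against bulk-HSCs and ST-HSCs against bulk-HSCs. The interactions called 0 of 5 with edgeR, against 0% of all genes for LT-HSCs and ST-HSCs, 0.00781% for LT-HSCs and bulk-HSCs and 0.0625% for ST-HSCs and bulk-HSCs. Unadjusted, 0, 1 and 1 of the 5 had a p under 0.05, beside 3.92%, 5.82% and 5.78% of all genes, and DESeq2 called 0, 1 and 0.

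**Figure D4:**
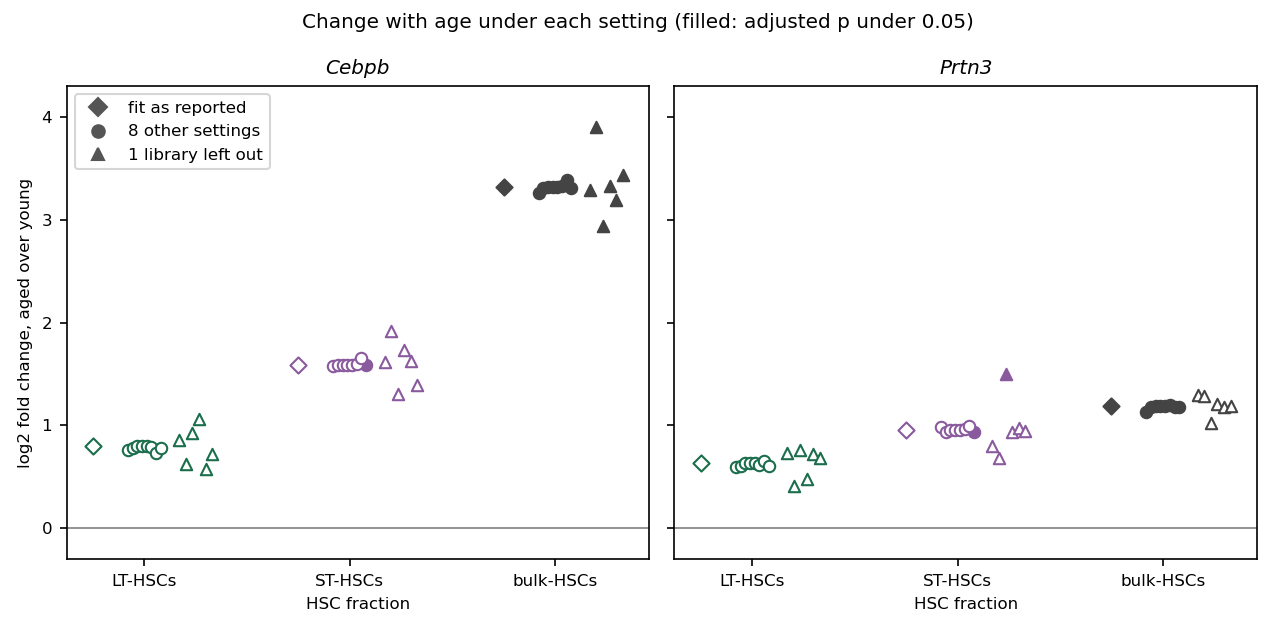
Log2 fold change with age of Cebpb (left) and Prtn3 (right) in the fit as reported (diamonds), under 8 other settings (circles) and with 1 library left out (triangles); filled symbols have an adjusted p under 0.05. Cebpb in bulk-HSCs stays filled between 2.94 and 3.91, while Prtn3 in bulk-HSCs loses its call in all 6 fits that leave out a library, and in ST-HSCs gains one without young replicate 3 (1.5).

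Levels of Cebpb and Prtn3 varied together across groups but not within them. Over the 18 libraries Pearson's r of their log2 CPM was 0.75 (Spearman's rho 0.66). After removal of the group means it was −0.15. The points share age, fraction and depth, so these are descriptions. The young ST-HSC library that stood apart combined 4.14 CPM of Cebpb with 125 CPM of Prtn3.

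**Figure D5:**
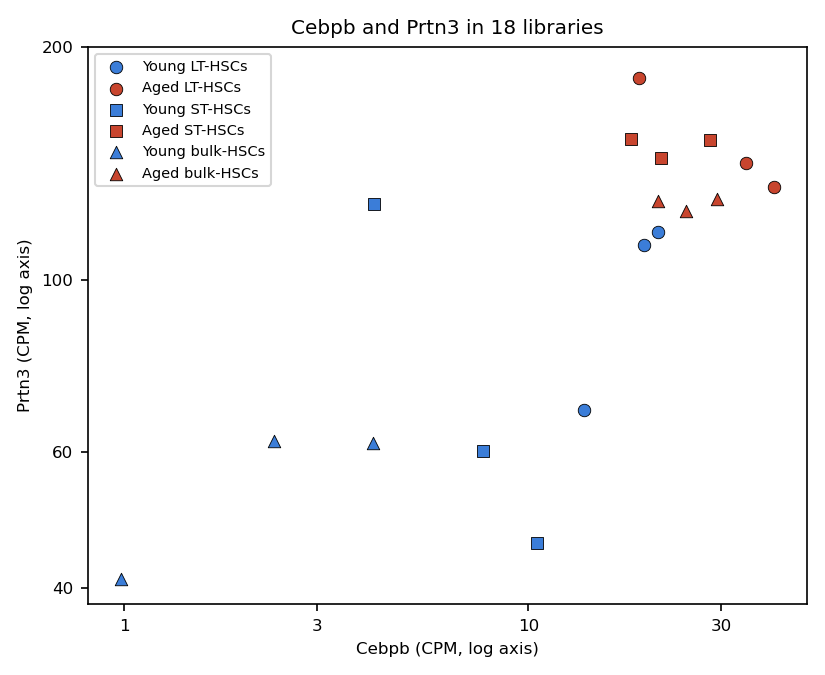
Level of Prtn3 against that of Cebpb in each of the 18 libraries (CPM, log axes), with colour for age and symbol for fraction. Aged libraries lie together from 18 CPM of Cebpb and 123 CPM of Prtn3 upwards, and young bulk-HSCs at the lower left.

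Genes known to regulate C/EBP factors or to work with them, 25 in all and 24 tested, gave 1 call in ST-HSCs, 1 in bulk-HSCs and 0 in LT-HSCs, beside the shares of all genes given above. At an unadjusted p under 0.05 they numbered 8, 5 and 3 in that order, and with DESeq2 3, 5 and 0. Over all genes tested, 9.67%, 13.3% and 8.81% had such an unadjusted p. Trib2, a pseudokinase that sends C/EBPα to degradation, rose in ST-HSCs from 21.5 ± 3.24 to 54.2 ± 1.0 CPM (log2 fold change 1.34 ± 0.27, edgeR adjusted p = 0.0233). It differed by 0.89 ± 0.27 in LT-HSCs and 0.35 ± 0.27 in bulk-HSCs without a call (0.223 and 0.686). With both libraries that stood apart left out, the ST-HSC value was 1.26 ± 0.30 and the call was lost (edgeR adjusted p = 0.0745). Myb, a progenitor factor that activates granule genes together with C/EBP proteins, fell in bulk-HSCs from 703 ± 70.5 to 469 ± 10.5 CPM (log2 fold change −0.58 ± 0.11, edgeR adjusted p = 0.00982). In LT-HSCs and ST-HSCs Myb differed by 0.05 ± 0.11 and −0.13 ± 0.11. For this list the median log2 difference was 0.15, 0.14 and 0.32 in the order LT-HSCs, ST-HSCs, bulk-HSCs, beside 0.04, 0.02 and 0.03 over all genes tested.

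Early granule and progenitor genes were unevenly present. Of 24 genes, 15 were tested, Bpi and Fcnb were at 0, and Calr (519 CPM), Srgn (364 CPM), which packs granule proteases, and Ctsc (64.2 CPM), which activates them, were counted in all libraries. Over all genes tested, an unadjusted p under 0.05 was found for 8.81%, 9.67% and 13.3% in LT-HSCs, ST-HSCs and bulk-HSCs. The shares called are given above. In LT-HSCs 0 of 15 passed (3 unadjusted, 1 with DESeq2). In ST-HSCs and bulk-HSCs 1 of 15 passed (2 and 7 unadjusted, 1 and 2 with DESeq2), the glutathione transferase gene Gstm1 in both. It rose from 95.9 ± 14.9 to 154 ± 12 CPM in ST-HSCs and from 102 ± 15.9 to 156 ± 10.7 CPM in bulk-HSCs (log2 fold changes 0.69 ± 0.15 and 0.61 ± 0.15, edgeR adjusted p = 0.0343 and 0.037). With both libraries that stood apart left out, the ST-HSC value was 0.57 ± 0.15 and lost its call (0.114), and the bulk-HSC call remained (0.018). The list's medians were 0.20, 0.17 and 0.17 in LT-HSCs, ST-HSCs and bulk-HSCs. Lyz2 and Cd63 of this list are also used widely outside neutrophils.

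Late granule and mature neutrophil genes were largely missing. Of the 24 with a row in the table, 5 were tested and 6 (Cd177, Retnlg, Fpr2, Olfm4, Wfdc21 and Mmp25) were at 0 in every library, while Ltf, Camp and Ngp were counted in 2 or 3 libraries each. None of the 5 passed in any fraction (1, 1 and 2 unadjusted in the same order, 0 with DESeq2). Of all genes tested, 8.81%, 9.67% and 13.3% had an unadjusted p under 0.05, and the shares called are given above. Padi4, which citrullinates histones, made up most of the list with 73.7 CPM. It differed by 0.54 ± 0.26, 0.68 ± 0.26 and 0.59 ± 0.26 in the 3 fractions (edgeR adjusted p = 0.565, 0.322 and 0.316). S100a9 was at 0 in all aged bulk-HSC libraries and at 2.68 ± 2.48 CPM in young ones, at least 18.7-fold higher against a floor of 3 counts per library, without a call (0.344).

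Receptors for myeloid growth factors and cytokines gave 0 calls among 14 tested (3, 3 and 4 unadjusted, 1, 2 and 3 with DESeq2, by fraction in that order). Among all genes the unadjusted shares were 8.81%, 9.67% and 13.3%, with the shares called as given above. Csf2rb, the common β chain of the GM-CSF, IL-3 and IL-5 receptors, had differences of −2.25 ± 0.51, −1.57 ± 0.49 and −1.92 ± 0.50 (edgeR adjusted p = 0.061, 0.177 and 0.0564). Flt3, the receptor of FLT3 ligand, had the smallest p in ST-HSCs and differed by −0.67 ± 0.48, −1.70 ± 0.49 and −1.58 ± 0.49 (edgeR adjusted p = 0.815, 0.133 and 0.119). Csf3r, the G-CSF receptor, was at 73.0 ± 22.9 CPM in young and 138 ± 5.70 CPM in aged bulk-HSCs (0.92 ± 0.25, adjusted p = 0.0725), and differed by 0.22 ± 0.25 in LT-HSCs and −0.05 ± 0.25 in ST-HSCs. Without both libraries that stood apart, which are not bulk-HSC libraries but enter the shared fit, Csf2rb and Csf3r passed in bulk-HSCs (edgeR adjusted p = 0.0475 and 0.0189). Medians of the list were −0.19, −0.00 and −0.14.

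Genes induced by C/EBPβ or C/EBPδ in inflammatory settings gave 0 calls among 11 tested of 19 (4, 3 and 3 unadjusted, 1, 3 and 3 with DESeq2), with Il6 and Saa3 at 0 in every library. Unadjusted shares over all genes were again 8.81%, 9.67% and 13.3%, and the shares called are given above. The smallest p-values belonged to the metallothionein gene Mt1 and the lipid droplet gene Plin2. Mt1 was at 0 in young ST-HSCs and at 9.96 ± 2.04 CPM in aged ST-HSCs, at least 66.7-fold higher if the listed zeros are true (edgeR adjusted p = 0.0717). Plin2 was at 54.5 ± 8.82 CPM in young and 31.9 ± 2.42 CPM in aged bulk-HSCs (−0.77 ± 0.20, edgeR adjusted p = 0.0551), and passed without both libraries that stood apart (0.0402). Hp, Il1b and Lcn2 belong both to this list and to the late granule list.

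The genes whose levels followed each member most closely are named as a description, by Pearson's r of log2 CPM over the 18 libraries. For Prtn3 they were Socs3 (0.94), a feedback inhibitor of cytokine signalling, Nsf (0.91) and Glul (0.91), and r within groups was 0.88, 0.82 and 0.78. Socs3, also on the list of genes induced by C/EBPβ or C/EBPδ, was at 6.12 ± 2.67 CPM in young and 29.5 ± 1.89 CPM in aged bulk-HSCs (2.27 ± 0.70, edgeR adjusted p = 0.117). It passed without both libraries that stood apart in bulk-HSCs (2.27 ± 0.47, edgeR adjusted p = 0.0134) and in ST-HSCs (3.87 ± 0.60, 0.00399), but not in LT-HSCs (0.346). For Cebpb they were Cysltr2 (0.93), a leukotriene receptor, Enpp5 (0.92) and Mboat2 (0.91), and r within groups was lower, at 0.56, 0.35 and 0.64. Cebpa was nearest to Ccbl1 (0.93), Gm16938 (0.90) and Il27 (0.88), Cebpd to Nxpe2 (0.86), Srpk3 (0.85) and Dr1 (0.83), and Cebpg to Gpatch2l (0.75), Ly9 (0.73) and Chid1 (0.72). Levels of all pairs share library and depth.

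Markers of other cell types and the number of genes detected also moved with age, and their part in the results for Cebpb and Prtn3 was not tested. Genes with at least 1 count numbered 12103 to 12607 in young and 13652 to 14133 in aged bulk-HSCs, 11548 to 13296 and 13526 to 13701 in ST-HSCs, and 11665 to 13876 and 13688 to 14016 in LT-HSCs. In bulk-HSCs the summed level of 13 monocyte and macrophage markers was 60.4 to 95.1 CPM in young and 14.2 to 17 CPM in aged mice. In LT-HSCs it was 14.6 to 52.5 and 24.8 to 83.1 CPM and in ST-HSCs 36.3 to 54.2 and 22 to 94.9 CPM, so the ages overlapped there. Of the 10 of these tested, 8, 6 and 1 had a positive log2 difference with age in LT-HSCs, ST-HSCs and bulk-HSCs and 0 were called (1, 1 and 4 unadjusted, 0, 2 and 4 with DESeq2). Among all genes tested, 8.81%, 9.67% and 13.3% had an unadjusted p under 0.05. Ms4a6c led the 10 markers in bulk-HSCs (−2.47 ± 0.64, edgeR adjusted p = 0.0542), C1qc was at 0 in aged bulk-HSCs and at least 87.7-fold higher in young ones (0.088), and Cx3cr1 was at 0 throughout.

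The summed T and NK cell markers, 7 in the table, were at 8.17 to 17.3 CPM in young and 63.6 to 71.4 CPM in aged bulk-HSCs. They were at 2.95 to 20.8 and 29.9 to 50.1 CPM in ST-HSCs and at 8.79 to 37.5 and 69.0 to 143 CPM in LT-HSCs. The ages overlapped in no fraction. The rise came mostly from Klrb1c, which encodes NK1.1. Klrb1c rose by 4.14 ± 0.81 in ST-HSCs and 3.51 ± 0.77 in bulk-HSCs (edgeR adjusted p = 0.0186 and 0.0227). Without both libraries that stood apart these calls remained (edgeR adjusted p = 0.021 and 0.0028). In LT-HSCs Klrb1c differed by 2.66 ± 0.74 without a call (edgeR unadjusted p = 0.00207, adjusted p = 0.162, or 0.192 without both libraries). Cd3e, Cd3g, Gzma and Ncr1 were at 0 in every library. The 9 erythroid markers summed to 44.3 to 167 CPM in young and 19.8 to 50.1 CPM in aged bulk-HSCs. Of the 5 tested, 1 was called in each direction, where 1.53% of all genes were called higher and 0.445% lower. Car1, a carbonic anhydrase of early erythroid cells, fell from 65.7 ± 55.1 to 0.15 ± 0.25 CPM (edgeR adjusted p = 0.0262), and Hba-a2, an α-globin gene, was at 0 in young and at 21.7 ± 8.13 CPM in aged bulk-HSCs, at least 147-fold higher if the listed zeros are true (0.0467).

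The 8 B cell markers summed to 10.6 to 29.2 CPM in young and 14.9 to 25.4 CPM in aged bulk-HSCs, nearly all of it Cd79b (0.05 ± 0.39, edgeR adjusted p = 0.985), with Ms4a1, Pax5, Igll1 and Ebf1 at 0. The 7 basophil, mast cell and eosinophil markers summed to at most 2.07 CPM in young and 7.09 CPM in aged bulk-HSCs, led by Cpa3 (1.56 ± 2.11, edgeR adjusted p = 0.883). Prss34, Mcpt8 and Fcer1a were at 0. The 12 HSC markers together held 4393 to 4913 CPM in young and 4576 to 4830 CPM in aged bulk-HSCs. Slamf1, which encodes CD150, a marker used to sort HSCs, was the only one called, and rose by 0.99 ± 0.22 in ST-HSCs and 0.96 ± 0.22 in bulk-HSCs (edgeR adjusted p = 0.0446 and 0.0313). Its ST-HSC call was lost without both libraries that stood apart (0.0617) and the bulk-HSC call remained (0.0238). Of all genes tested, 0.625% in ST-HSCs and 1.53% in bulk-HSCs were called higher in aged mice.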

How the data were processed

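The authors aligned the reads of 18 ribosomal RNA-depleted libraries to mm10 with HISAT2 and quantified them with StringTie 1.3.4d. The deposited values are whole-number read counts per gene symbol without normalization. How StringTie output became whole counts, the annotation and the strand setting are not given in the sources used here. All columns were used, and each library was assigned to its group by its title.

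Counts were analysed with edgeR 4.0.16 in R 4.3.3, with DESeq2 1.42.0 as an alternative. TMM factors were applied, genes with a mean of at least 1 CPM over all libraries were kept, and all 6 groups entered one quasi-likelihood fit, from which age effects by fraction, fraction differences by age and their interactions were taken. P-values were adjusted by Benjamini-Hochberg over all genes tested. The SE is the log2 fold change over the root of F, and correlations used log2 CPM with a prior count of 2. Coordinates and exonic lengths came from GENCODE M21. Of the 10 genes, 8 had a RefSeq promoter window. The scripts were tested on simulated data.

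The members and lists were chosen with earlier results of these data known. For each list the text names at most 5 called genes, or the 2 with the smallest p where none was called. It also names the 3 genes most like each member and the most abundant marker of each other cell type. Genes given only by level or as listed at 0 fall outside this rule or were chosen after their values were seen. The same holds for the genes adjoining the members and for the changes given for Flt3, Socs3 and Ddit3.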

Additional observations from a re-analysis of the deposited data

How the results depend on the processing

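Spread between libraries limits the precision for Cebpa and Cebpd, whose coefficients of variation were 1.58 and 1.42. Cebpe and Elane did not pass the filter and could not be tested. Besides each library left out, 8 other settings were tried, namely DESeq2, RLE factors, library size alone, only the groups compared, a replicate block, filterByExpr and filters of any count or of 10 counts in every library. Under this last filter Cebpa and Cebpd were not tested. For single genes, 252 results under the 8 other settings and 216 under leave-one-out kept their direction and their side of the threshold, while 4 and 1 gained a call, 1 and 7 lost one and 1 and 10 reversed.

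The number of members called with age in ST-HSCs was 2 with DESeq2 and 1 without both young replicate 3 libraries of LT-HSCs and ST-HSCs, a setting added after the data were seen, and 0 under the other settings that kept every library. DESeq2 called 1 member between young ST-HSCs and bulk-HSCs and 1 (Cebpb) in the interaction of LT-HSCs and bulk-HSCs. Between young LT-HSCs and bulk-HSCs, 0 were called with only the groups compared. The causes were not tested. Without both young replicate 3 libraries, Prtn3 reversed to −0.053 in young ST-HSCs against bulk-HSCs and to 0.31 in the interaction of ST-HSCs and bulk-HSCs. No call of a member was lost under that setting, including those of Cebpb and Prtn3 in bulk-HSCs. Leaving out each library gave 0 to 1 members called with age in ST-HSCs, 1 in every such fit in bulk-HSCs and 0 to 1 between young LT-HSCs and bulk-HSCs. Age differences then ranged on the log2 scale from −1.13 to 0.53 for Cebpa and from −0.66 to 3.34 for Cebpd in ST-HSCs, and from −2.97 to 0.017 for Cebpa in bulk-HSCs. In LT-HSCs Cebpa ranged from 0.74 to 8.74 and Cebpd from 0.30 to 2.72, and in bulk-HSCs Cebpd from 0.85 to 4.14. Prtn3 ranged from −0.13 to 0.12 between aged LT-HSCs and ST-HSCs, from −0.056 to 0.76 between young ST-HSCs and bulk-HSCs and from −0.50 to 0.31 in the interaction of ST-HSCs and bulk-HSCs.

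The labels do not say that libraries of equal replicate number share animals or a batch, so they were not treated as pairs. The correlation of their deviations from the group means was between −0.05 and 0.16, and 0 of 15 pairs of groups had every correlation over 0.1. The highest, 0.164 and 0.129, were between young LT-HSCs and young ST-HSCs of replicates 2 and 3. Of 18 libraries, 12 were closest to their own number among the 3 numbers at the same age. An even draw among the numbers would give fewer on average. Whether equal numbers share a source was not tested. With the replicate block 2 members were called with age in bulk-HSCs, as without it, and Cebpa in ST-HSCs turned from −0.11 to 0.36. With library size alone the share of called genes that were higher in aged bulk-HSCs was 66.7%, against 77.5% with TMM.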

Other observations

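Ddit3, which encodes the C/EBP relative CHOP and forms dimers with C/EBP proteins under stress, was chosen after its values were seen. It stood at 4.32 ± 1.02 CPM in young and 14.8 ± 2.84 CPM in aged bulk-HSCs (SD, n = 3), a log2 difference of 1.77 ± 0.55 (SE) with an edgeR adjusted p of 0.121. In ST-HSCs it was at 17.8 ± 2.47 and 10.3 ± 4.57 CPM (−0.78 ± 0.53, edgeR adjusted p = 0.776), and in LT-HSCs at 8.82 ± 6.77 and 13.5 ± 2.91 CPM (0.61 ± 0.53, edgeR adjusted p = 0.886). As an interaction, the change of ST-HSCs minus that of bulk-HSCs was −2.55 ± 0.76 (unadjusted p = 0.00372, edgeR adjusted p = 0.627). The others were −1.16 ± 0.76 for LT-HSCs against bulk-HSCs and 1.39 ± 0.76 for LT-HSCs against ST-HSCs (edgeR adjusted p = 0.944 and 1). Without both young replicate 3 libraries of LT-HSCs and ST-HSCs the bulk-HSC difference passed (1.78 ± 0.47, edgeR adjusted p = 0.0452).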
